A study of Mus musculus with 24 samples.

Results

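The 36 genes described here encode the machinery that makes sterols and fatty acids: the SREBP transcription factors and the proteins that hold or release them, the enzymes from acetyl-CoA to cholesterol, a sterol carrier, and the enzymes that build, desaturate and elongate fatty acids. They were taken by symbol from the deposited expression table, where 35 of the 36 were found among 12010 genes; Idi1 was not analysed here. The 35 genes comprised 5 regulators, 6 enzymes of the mevalonate pathway, 11 enzymes from squalene to cholesterol, the sterol carrier Stard4, 3 enzymes that supply acetyl-CoA or NADPH, 2 of fatty acid synthesis and 7 desaturases and elongases.

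Cells that need sterol release SREBP from the endoplasmic reticulum: SCAP escorts the precursor to the Golgi for cleavage, and INSIG proteins retain SCAP when sterol is plentiful. The cleaved factor enters the nucleus and binds sterol regulatory elements (SREs) near the genes of cholesterol synthesis (chiefly SREBP2) and fatty acid synthesis (chiefly SREBP1). MITF, TFEB and TFE3 are related basic helix-loop-helix factors that bind E-boxes; MITF is the lineage factor of melanocytes, and TFEB and TFE3 control lysosomal and metabolic genes and respond to nutrients.

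RNA was measured in B16-F10-luc2 cells, a C57BL/6 mouse melanoma line that carries luciferase, as 8 lines with 3 libraries each. The lines were the parental cells (genotype WT), the Mitf-KO, Tfe3-KO and Tfeb-KO cells (here MITF KO, TFE3 KO and TFEB KO), the double KOs for Tfeb and Tfe3, Mitf and Tfe3, and Mitf and Tfeb (TFEB/TFE3 DKO, MITF/TFE3 DKO and MITF/TFEB DKO), and the triple KO (TKO); no line received any treatment. The KO lines were isolated as clones, so a difference between 1 clone and the parental population cannot be told apart from a difference that comes with the genotype. The DKO lines without MITF and the TKO were made from the MITF KO cells, so the lines without MITF share that origin. The labels do not say that the 3 libraries of a line came from separate cultures, and p-values therefore measure the spread between these libraries, which may be technical. In these bulk samples, fewer cells that express a gene and less RNA per cell cannot be told apart.

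Values are CPM, the reads of a gene scaled to the reads of its library, normalised by the authors with edgeR; the libraries held 18300902 to 26667877 reads on genes, and only the 3′ ends of transcripts were sequenced. Tfeb averaged 8.80 CPM in the parental cells and 2.88 to 5.12 CPM in the lines without TFEB, and Tfe3 averaged 37.1 CPM in the parental cells and 8.63 to 19.8 CPM in the lines without TFE3. Mitf averaged 335 to 1397 CPM in the lines without MITF; the MITF KO carries a frameshift, so the Mitf transcript does not check that label. All 8 melanocytic markers on a list were in the table, with Dct at 12720 CPM or more and Sox10 at 632 CPM or more in every library. Others on the list varied more widely over the libraries, with Gpr143 from 2.28 to 20.1 CPM, Tyr from 7.66 to 154 CPM and Pmel from 527 to 5148 CPM. Of the markers of other cells, 1 of 4 immune, 1 of 2 endothelial, 1 of 3 epithelial and 2 of 4 fibroblast genes were listed; Cd68 stayed at or below 1.74 CPM. Pecam1 had 27.5 CPM in TFEB/TFE3 DKO cells, Krt14 had 7.74 CPM in MITF/TFEB DKO cells and 17.4 CPM in TKO cells, and Col1a2 had 9.19 to 39.6 CPM; Ptprc, Cdh5, Epcam and Dcn were not analysed here. The part of other cells in the results was not tested.

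The sequences around the starts of the genes were searched for the elements named above. RefSeq windows of 300 bases, from 250 bases before the start to 50 after it, were held for 29 of the 36 genes (39 windows). Windows for Fdps, Fdft1, Sqle, Stard4, Scd1, Scd2 and Fads1 were not held. The 2 windows below are shown because Hsd17b7 had the largest rise of all 35 genes and Hmgcs1 was the only gene whose window held the SRE searched for. Both were located by exact match in GRCm39; the Hsd17b7 window lies at chr1:169796725-169797024 on the minus strand and the Hmgcs1 window at chr13:120151637-120151936 on the plus strand. Capitals mark the E-box CACGTG in Hsd17b7 and the SRE in Hmgcs1.
Hsd17b7: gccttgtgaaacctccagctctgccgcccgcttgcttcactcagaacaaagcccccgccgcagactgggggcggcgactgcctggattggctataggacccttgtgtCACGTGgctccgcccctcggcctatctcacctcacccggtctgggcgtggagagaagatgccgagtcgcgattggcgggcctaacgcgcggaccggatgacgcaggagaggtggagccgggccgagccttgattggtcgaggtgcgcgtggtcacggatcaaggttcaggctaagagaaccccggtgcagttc
Hmgcs1: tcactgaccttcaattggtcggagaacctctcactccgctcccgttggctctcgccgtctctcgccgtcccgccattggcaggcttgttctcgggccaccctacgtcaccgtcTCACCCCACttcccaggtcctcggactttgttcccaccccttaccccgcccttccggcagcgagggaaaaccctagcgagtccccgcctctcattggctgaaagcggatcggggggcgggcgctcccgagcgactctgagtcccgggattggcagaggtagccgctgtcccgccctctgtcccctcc

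On both strands, the SRE searched as TCACNCCAC was in 1 of the 39 windows, against 1.14% of the 12312 windows of all genes tested. The E-box CACGTG was in 7 windows of 6 genes (Scap, Insig1, Hsd17b7, Sc5d, Dhcr7 and Elovl5), a share of 17.9% against 10.1% of the windows of all genes tested; in Hsd17b7 it began 143 bases before the start. TCACGTGA is the extended E-box of lysosomal genes, and the study reports it as a consensus shared by MITF, TFEB and TFE3. Neither it nor TCATGTGA, the M-box of melanocytic genes, was in any of the 39 windows, against 1.91% and 0.796% of the windows of all genes tested. Motifs this rare could be absent from 39 windows of any genes. The CCAAT box, the site of NF-Y, was in 25 windows, a share of 64.1% against 38.1%, and the GC box GGGCGG was in 29 windows, a share of 74.4% against 62.7%. CACGTG lies within TCACGTGA, so a match to the longer motif would also count as an E-box. These are matches of letters in a short window; binding was not measured here.

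Each KO line was first compared with the parental cells, which asks what the genes did when 1, 2 or all 3 of the factors were lost. A gene was called at an adjusted p under 0.05 (limma on log2(CPM + 1), Benjamini-Hochberg over all 12010 genes), and all 7 comparisons share the parental libraries. In the MITF KO, 12 genes were higher and 3 lower, where 20.1% of all genes were called higher and 17.8% lower. In the TFE3 KO, 3 were higher and 1 lower (all genes 4.5% and 7.78%). In the TFEB KO, 7 were higher and 0 lower (all genes 2.25% and 2.59%), and in TFEB/TFE3 DKO cells 10 were higher and 0 lower (all genes 4.72% and 4.09%). For the lower direction in these last 2 lines, an unadjusted p under 0.05 and edgeR on the recovered reads also gave 0. The MITF/TFE3 DKO had 8 higher and 5 lower (all genes 20.2% and 21.7%), the MITF/TFEB DKO 17 higher and 7 lower (all genes 28.8% and 27.3%), and the TKO 19 higher and 7 lower (all genes 28.3% and 27.9%). In this fit of all libraries, the share of the 35 genes that was higher exceeded that of all genes in every line, by the least in MITF/TFE3 DKO cells (22.9% against 20.2%), and the share that was lower was below that of all genes in every line. Shares of all genes are given for this fit only. In other fits the genes higher fell to 0 in TFE3 KO cells and 5 in MITF/TFE3 DKO cells, and those lower reached 4 and 8. Whether the ordering held there was not tested.

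Some of these counts rested on single libraries. That of genes higher in TFEB KO cells fell from 7 to 2 without parental library 3 or TFEB KO library 1, to 3 without TFEB KO library 3, to 4 without parental library 1, and to 1 when only the 6 libraries compared were fitted. In the TFE3 KO, 1 gene was higher without any one of 10 single libraries, among them each parental library and TFE3 KO library 2, and 5 or 6 without TFEB KO library 1 or 2 or TFEB/TFE3 DKO library 2; the count of genes lower was 0 without parental library 2 or 3 or TFE3 KO library 2 or 3, and 4 without TFE3 KO library 1. In the MITF/TFE3 DKO, 5 were higher without parental library 2 or MITF/TFE3 DKO library 2 or 3, and 8 lower without MITF/TFE3 DKO library 2. In the MITF KO, 1 was lower without MITF KO library 2.

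At the study's threshold of a 2-fold change and an unadjusted p under 0.05, 1 gene passed in MITF KO cells (6.28% of all genes), 0 in TFE3 KO cells (1.71%), 0 in TFEB KO cells (0.783%) and 0 in TFEB/TFE3 DKO cells (0.958%). Of the 3 lines at 0, edgeR passed 1 gene in TFE3 KO cells and 0 in the other two, and the genes at an unadjusted p under 0.05 whatever their fold numbered 19, 12 and 13. In the MITF/TFE3 DKO 2 genes passed (5.87%), in MITF/TFEB DKO cells 3 (13.7%) and in TKO cells 7 (14.7%). Most changes in these genes were thus smaller than 2-fold. In the fit of all libraries, the shares past this threshold were below those of all genes in every line but the TKO, where 7 of 35 genes passed. Without parental library 1 the MITF KO had 2, without parental library 3 or TFE3 KO library 1 the TFE3 KO had 1, and without parental library 2 or TFEB/TFE3 DKO library 2 the TFEB/TFE3 DKO had 1.

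The 17 cholesterol enzymes accounted for most of the rises. They numbered 10 higher and 0 lower in MITF KO cells, 2 and 1 in TFE3 KO cells, 6 and 0 in TFEB KO cells, 8 and 0 in TFEB/TFE3 DKO cells, 6 and 1 in MITF/TFE3 DKO cells, 12 and 3 in MITF/TFEB DKO cells, and 13 and 3 in TKO cells. Their median log2 fold change was 0.33, 0.14, 0.28, 0.28, 0.17, 0.63 and 0.83 in the same order of lines, while the median of all genes lay between -0.02 and 0.02. The 12 fatty acid enzymes had at most 3 genes higher and 3 lower in a line, with medians between -0.10 and 0.22.

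**Figure D1:**
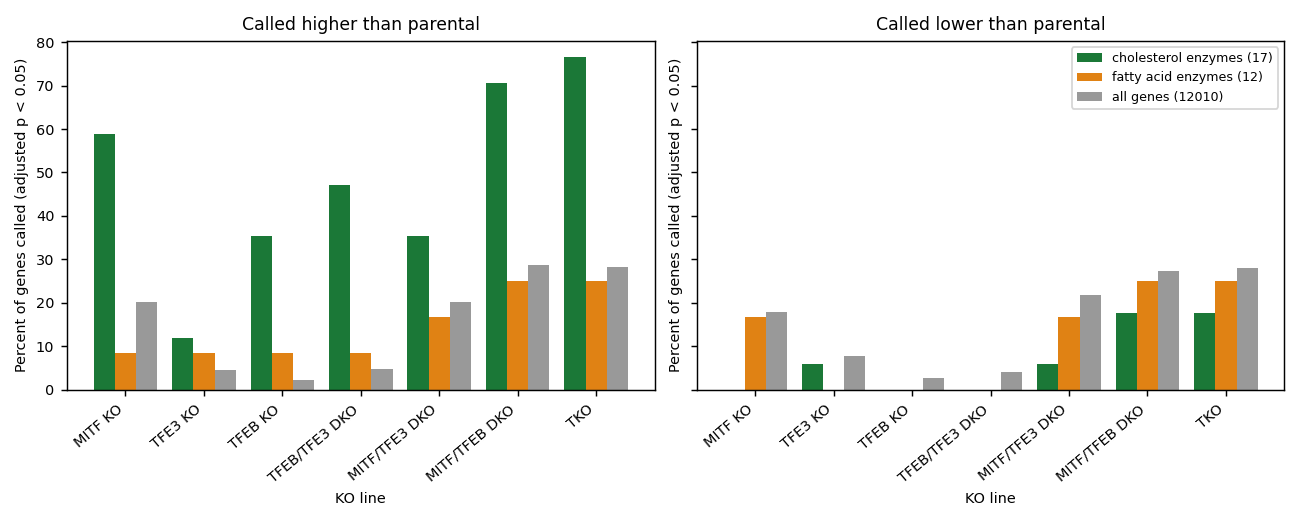
The y axis gives the percent of genes called at an adjusted p under 0.05 in each KO line against the parental cells, higher on the left and lower on the right; bars stand for the 17 cholesterol enzymes (green), the 12 fatty acid enzymes (orange) and all 12010 genes (grey). The green bars for higher genes reach 58.8% in MITF KO cells, 70.6% in MITF/TFEB DKO cells and 76.5% in TKO cells, and the orange bars stay at or below 25.0%.

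**Figure D2:**
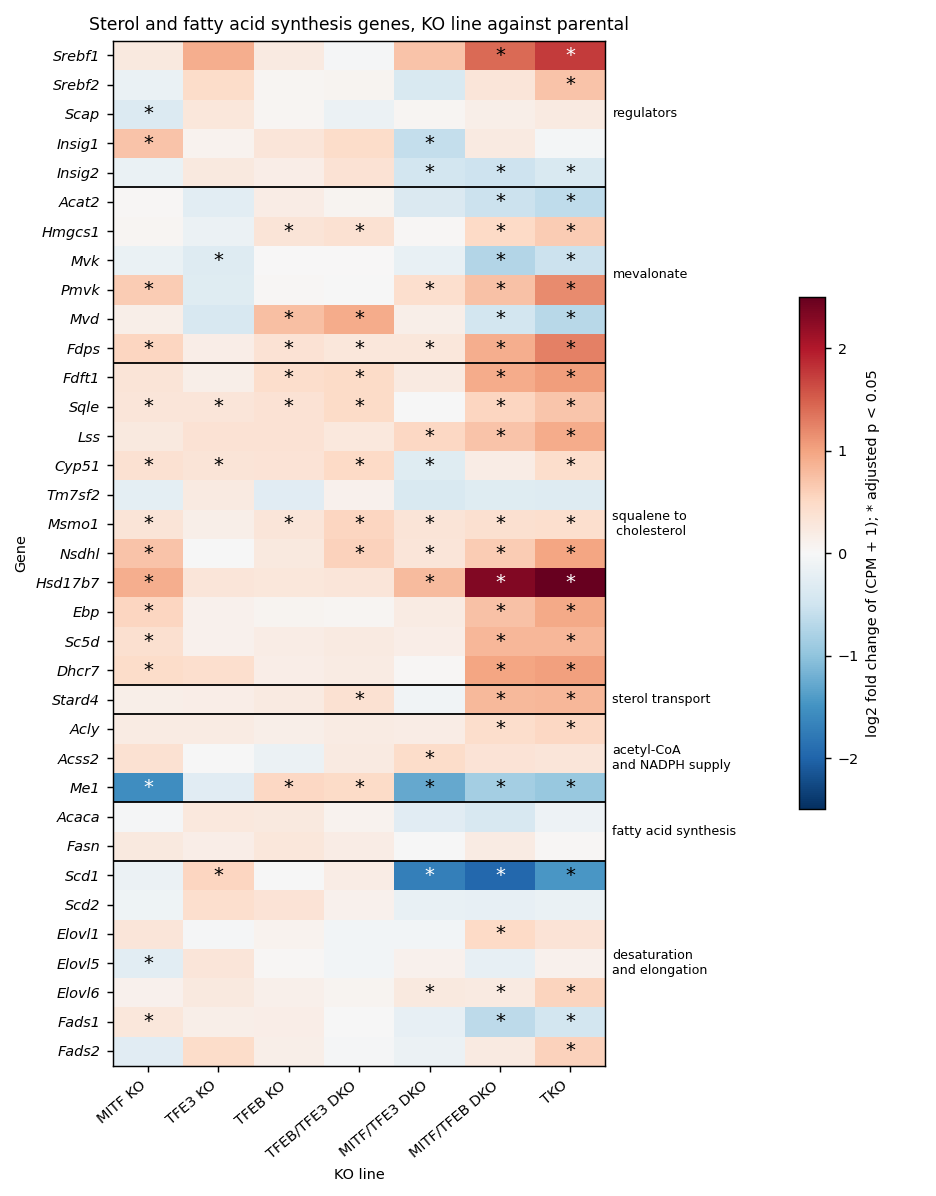
Each cell gives the log2 fold change of (CPM + 1) of 1 gene (rows, grouped by role) in 1 KO line against the parental cells (columns), red for higher and blue for lower, with a star where the adjusted p was under 0.05. The rows from Fdft1 to Dhcr7 other than Tm7sf2 are red in most lines, Tm7sf2 is blue without a star in 5 of the 7, and Me1 and Scd1 are the darkest blue.

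Srebf1, which encodes SREBP1, rose in MITF/TFEB DKO and TKO cells. It had 5.09, 3.18 and 5.48 CPM in parental cells, 8.82, 14.9 and 19.3 CPM in MITF/TFEB DKO cells and 13.4, 20.7 and 18.8 CPM in TKO cells, with log2 differences of 1.42 ± 0.40 (SE, adjusted p = 0.0045) and 1.74 ± 0.40 (adjusted p = 0.00079). All libraries of both lines lay above the parental ones. The other lines had 5.79, 3.74 and 7.41 CPM (MITF KO), 4.44, 13.5 and 13.0 CPM (TFE3 KO), 3.89, 9.09 and 4.26 CPM (TFEB KO cells), 2.67, 8.94 and 3.33 CPM (TFEB/TFE3 DKO cells) and 10.2, 4.66 and 10.3 CPM (MITF/TFE3 DKO). In each of these 5 lines except the MITF KO, 1 library stood well away from the other 2, and none of the 5 passed the test. Srebf1 had only 67 to 485 reads per library.

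Against the parental cells, Srebf2, which encodes SREBP2, rose in TKO cells and was called in no other line by the fit of all libraries. Srebf2 was also called higher in MITF/TFEB DKO cells than in MITF KO cells, as given below. Its libraries had 55.0, 46.2 and 56.0 CPM in the parental cells and 86.3, 91.5 and 79.9 CPM in TKO cells, a log2 difference of 0.70 ± 0.16 (adjusted p = 0.00091), and the lines did not overlap. The MITF KO had 48.2, 40.4 and 51.2 CPM, the MITF/TFE3 DKO 40.5, 33.1 and 46.9 CPM and MITF/TFEB DKO cells 56.4, 65.9 and 72.2 CPM. In the lines with MITF the values were 66.2, 67.6 and 84.8 CPM (TFE3 KO), 41.5, 68.8 and 55.0 CPM (TFEB KO) and 50.5, 68.3 and 47.0 CPM (TFEB/TFE3 DKO). The TFE3 KO libraries all lay above the parental ones but the difference of 0.46 ± 0.16 did not pass (adjusted p = 0.07). Fitted on the libraries compared alone, Srebf2 was also called higher in MITF/TFEB DKO cells (0.30, adjusted p = 0.0414) and lower in MITF/TFE3 DKO cells (-0.39, adjusted p = 0.0468).

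Insig1, whose product retains SCAP and is itself induced by SREBP, went in both directions. It had 20.6, 21.0 and 20.2 CPM in parental cells, rose to 32.7, 34.5 and 36.3 CPM in MITF KO cells (0.72 ± 0.14, adjusted p = 0.00038) and fell to 13.4, 14.04 and 12.6 CPM in MITF/TFE3 DKO cells (-0.59 ± 0.14, adjusted p = 0.0021). The 3 lines were fully separated. MITF/TFEB DKO cells (26.4, 23.3 and 23.0 CPM) and TKO cells (20.8, 20.4 and 18.2 CPM) were not called, nor were the TFE3 KO (28.3, 16.9 and 21.9 CPM), the TFEB KO (30.8, 25.4 and 21.2 CPM) and the TFEB/TFE3 DKO (32.9, 27.3 and 25.9 CPM), the last with an adjusted p of 0.051 (0.048 by edgeR). Insig2, the second retention protein, averaged 41.2 CPM in the parental cells and fell in MITF/TFE3 DKO cells (29.8 CPM), the MITF/TFEB DKO (28.3 CPM) and the TKO (31.5 CPM), by 0.46, 0.53 and 0.38 on the log2 scale. Scap, the escort of SREBP, averaged 79.99 CPM in the parental cells and, against them, passed the test only in MITF KO cells, at 63.4 CPM (-0.34 ± 0.11, adjusted p = 0.015).

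Of the 6 mevalonate enzymes in the table, Hmgcs1, Pmvk and Fdps rose and Acat2, Mvk and Mvd fell in both MITF/TFEB DKO and TKO cells. Hmgcs1 encodes the cytosolic HMG-CoA synthase at the entry of the pathway and carries the SRE printed above. It had 76.1, 92.4 and 84.4 CPM in parental cells, 121, 95.0 and 101 CPM in TFEB KO cells, 109, 117 and 105 CPM in TFEB/TFE3 DKO cells, 127, 119 and 111 CPM in MITF/TFEB DKO cells and 127, 136 and 133 CPM in TKO cells. These 4 lines lay above the parental libraries, with log2 differences of 0.32 (adjusted p = 0.035), 0.39 (0.0066), 0.49 (5.8e-05) and 0.64 (1.6e-06) and an SE of 0.09. The first 2 of these calls were lost when only the libraries compared were fitted (adjusted p = 0.257 and 0.0528). The MITF KO (88.4, 85.4 and 85.5 CPM), the TFE3 KO (71.4, 77.0 and 78.1 CPM) and the MITF/TFE3 DKO (85.0, 80.8 and 91.3 CPM) overlapped the parental libraries.

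Mvd, which decarboxylates mevalonate pyrophosphate, rose where TFEB was lost in the presence of MITF and fell where both were lost. It had 68.4, 78.3 and 62.1 CPM in parental cells, 133, 94.1 and 127 CPM in TFEB KO cells and 146, 99.9 and 159 CPM in TFEB/TFE3 DKO cells, with log2 differences of 0.74 ± 0.19 (adjusted p = 0.019) and 0.93 ± 0.19 (adjusted p = 0.0024). It fell to 61.6, 50.2 and 41.6 CPM in MITF/TFEB DKO cells (-0.45 ± 0.19, adjusted p = 0.044) and to 45.6, 44.7 and 37.6 CPM in TKO cells (-0.69 ± 0.19, adjusted p = 0.0031). The MITF KO (78.4, 82.2 and 70.6 CPM), the TFE3 KO (70.5, 48.9 and 42.1 CPM) and the MITF/TFE3 DKO (73.8, 91.3 and 66.1 CPM) did not pass. The TFEB KO call was lost when only the libraries compared were fitted (adjusted p = 0.0593).

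Mvk, the mevalonate kinase, had 37.1, 39.6 and 40.5 CPM in parental cells, 34.9, 29.7 and 28.3 CPM in TFE3 KO cells, 24.8, 24.01 and 21.1 CPM in MITF/TFEB DKO cells and 25.4, 24.3 and 30.3 CPM in TKO cells, and it fell in these 3 lines by 0.33, 0.72 and 0.54 on the log2 scale (adjusted p = 0.030, 1.5e-06 and 6.6e-05); the TFE3 KO call was lost on the libraries compared alone (adjusted p = 0.139). The other lines had 36.5, 32.3 and 35.6 CPM (MITF KO), 41.9, 40.3 and 36.5 CPM (TFEB KO cells), 38.0, 39.6 and 40.02 CPM (TFEB/TFE3 DKO cells) and 33.5, 35.0 and 33.6 CPM (MITF/TFE3 DKO). Acat2, which joins acetyl-CoA units, fell from a mean of 140 CPM in the parental cells to 96.8 CPM in MITF/TFEB DKO cells (-0.53) and 89.6 CPM in TKO cells (-0.63). Pmvk, the phosphomevalonate kinase, rose in the 4 lines without MITF, from 48.2 ± 1.31 CPM (SD, n = 3) to 74.9 (MITF KO), 64.6 (MITF/TFE3 DKO), 81.3 (MITF/TFEB DKO) and 111 ± 4.74 CPM (TKO), the last a log2 difference of 1.19 ± 0.11 (adjusted p = 4e-09). Its values in the 3 KO lines with MITF, 39.2 to 49.9 CPM, did not pass the test. Fdps, the farnesyl diphosphate synthase, rose in every KO line except the TFE3 KO, from 175 ± 6.78 CPM to between 213 CPM (TFEB/TFE3 DKO) and 423 ± 15.1 CPM (TKO, log2 difference 1.26 ± 0.07, adjusted p = 3.3e-13). Of the 50-base stretches in the last 400 bases of Fdps, 61.5% also occur in other genes of the annotation, and 16.2% of those of Mvk do, so that reads of these genes could have been shared with the copies.

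From squalene on, Hsd17b7, which encodes the 3-keto-steroid reductase of the pathway, had the largest rise of all 35 genes. It had 12.04, 8.41 and 10.2 CPM in parental cells, 56.6, 50.1 and 57.1 CPM in MITF/TFEB DKO cells and 61.1, 63.4 and 60.2 CPM in TKO cells, so that these 2 lines stood 4.99-fold and 5.62-fold above the parental cells on the (CPM + 1) scale (log2 differences 2.32 ± 0.13 and 2.49 ± 0.13, adjusted p = 4.2e-13 and 8.1e-14). The MITF KO (20.6, 18.9 and 20.2 CPM) and the MITF/TFE3 DKO (17.8, 15.7 and 22.2 CPM) lay between, at 0.91 and 0.80 above the parental cells on the log2 scale. The TFE3 KO (14.4, 10.9 and 13.3 CPM), the TFEB KO (13.2, 12.2 and 12.1 CPM) and the TFEB/TFE3 DKO (12.6, 13.4 and 12.2 CPM) were not called.

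In TKO cells the next largest rise in this part of the pathway was that of Fdft1, the squalene synthase. In MITF/TFEB DKO cells Dhcr7, described below, rose slightly more than Fdft1 on the log2 scale, from a mean of 39.8 to 80.2 CPM. Fdft1 had 17.0, 16.1 and 17.4 CPM in parental cells, 35.3, 29.4 and 33.5 CPM in MITF/TFEB DKO cells and 36.03, 36.6 and 34.5 CPM in TKO cells (0.92 ± 0.13 and 1.04 ± 0.13, adjusted p = 1.6e-06 and 2.3e-07). The TFEB KO (24.2, 23.9 and 21.7 CPM) and the TFEB/TFE3 DKO (26.3, 22.1 and 23.4 CPM) also lay above all parental libraries (0.45 and 0.48, adjusted p = 0.040 and 0.017), the first not called after quantile normalization (adjusted p = 0.0528) or on the libraries compared alone (adjusted p = 0.104). The MITF KO (19.2, 22.5 and 21.9 CPM), the TFE3 KO (22.3, 19.0 and 15.1 CPM) and the MITF/TFE3 DKO (16.5, 22.4 and 20.5 CPM) did not pass, although edgeR called the MITF KO (adjusted p = 0.047, and 0.051 by limma).

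Sqle, the squalene epoxidase and a rate-controlling step, rose in 6 of the 7 KO lines. It had 59.4, 56.5 and 51.1 CPM in parental cells, 65.0, 70.8 and 71.6 CPM in MITF KO cells, 71.7, 69.8 and 64.7 CPM in TFE3 KO cells, 80.6, 64.1 and 71.3 CPM in TFEB KO cells, 81.5, 78.1 and 75.5 CPM in TFEB/TFE3 DKO cells, 84.6, 79.4 and 79.5 CPM in MITF/TFEB DKO cells and 97.9, 87.3 and 86.9 CPM in TKO cells. Every one of these libraries exceeded the parental ones, with log2 differences between 0.30 (TFE3 KO, adjusted p = 0.046) and 0.69 (TKO, adjusted p = 2.2e-06). The exception was the MITF/TFE3 DKO, at 46.8, 59.97 and 59.93 CPM. The calls in TFE3 KO and TFEB KO cells were lost when only the libraries compared were fitted (adjusted p = 0.117 and 0.179), and that in TFE3 KO cells also with the replicate number as a block (adjusted p = 0.0522).

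Cyp51, the lanosterol demethylase, had 162, 167 and 134 CPM in parental cells. It rose to 204, 201 and 198 CPM in MITF KO cells, 212, 183 and 181 CPM in TFE3 KO cells, 215, 205 and 231 CPM in TFEB/TFE3 DKO cells and 214, 201 and 214 CPM in TKO cells, by 0.39, 0.32, 0.49 and 0.44 on the log2 scale. The TFE3 KO call was lost with edgeR (adjusted p = 0.0534) and on the libraries compared alone (adjusted p = 0.155). In the MITF/TFE3 DKO it fell, at 109, 142 and 123 CPM (-0.31 ± 0.10, adjusted p = 0.020), although 1 of these libraries overlapped the parental ones; the TFEB KO (221, 170 and 197 CPM) and the MITF/TFEB DKO (185, 177 and 161 CPM) were not called. Msmo1, a sterol methyl oxidase, rose in 6 lines, all but the TFE3 KO (117, 114 and 106 CPM). It had 104, 103 and 96.0 CPM in parental cells and its highest values, 153, 150 and 139 CPM, in TFEB/TFE3 DKO cells (0.54 ± 0.08, adjusted p = 4.1e-05). The remaining libraries had 122, 125 and 135 CPM in MITF KO cells, 136, 126 and 113 CPM in TFEB KO cells, 127, 131 and 118 CPM in MITF/TFE3 DKO cells, 137, 137 and 128 CPM in MITF/TFEB DKO cells and 140, 131 and 133 CPM in TKO cells, all above the parental ones.

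Nsdhl, the sterol dehydrogenase that works beside Msmo1, rose in 5 lines. It had 29.0, 26.1 and 20.3 CPM in parental cells, 40.7, 38.2 and 45.7 CPM in MITF KO cells (0.72 ± 0.12, adjusted p = 6.4e-05), 38.4, 36.1 and 38.9 CPM in TFEB/TFE3 DKO cells (0.58 ± 0.12, adjusted p = 0.0031, and 0.0544 on the libraries compared alone), 39.8, 40.6 and 36.3 CPM in MITF/TFEB DKO cells (0.63 ± 0.12, adjusted p = 0.00014) and 50.3, 50.3 and 50.8 CPM in TKO cells (0.99 ± 0.12, adjusted p = 3e-07). The MITF/TFE3 DKO, at 27.6, 35.3 and 30.5 CPM, was called at 0.31 (adjusted p = 0.046, and 0.052 by edgeR) with libraries that overlapped the parental ones; the TFE3 KO (29.5, 22.7 and 22.3 CPM) and the TFEB KO (31.4, 29.2 and 27.8 CPM) were not called.

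Ebp, the sterol isomerase, Sc5d, the lathosterol desaturase, and Dhcr7, the last reductase of the pathway, each rose in MITF KO cells, the MITF/TFEB DKO and the TKO. Ebp averaged 147 CPM in the parental cells, 214 CPM in MITF KO cells, 243 CPM in MITF/TFEB DKO cells and 284 CPM in TKO cells. Sc5d averaged 18.4, 24.9, 33.8 and 33.4 CPM in the same lines, and Dhcr7 averaged 39.8, 55.1, 80.2 and 81.6 CPM. In TFE3 KO cells Dhcr7 had 62.2, 50.9 and 48.4 CPM, all above the parental libraries, at 0.43 ± 0.14 on the log2 scale (adjusted p = 0.052 by limma and 0.049 by edgeR). Lss, the lanosterol synthase, rose in MITF/TFE3 DKO cells (19.1 CPM), the MITF/TFEB DKO (21.8 CPM) and the TKO (25.8 CPM) from 13.1 CPM. Tm7sf2, a sterol reductase, had 7 to 51 reads per library and was called in no KO line. Stard4, which carries cholesterol between membranes, averaged 21.6 CPM in the parental cells and rose in TFEB/TFE3 DKO cells (28.6 CPM), the MITF/TFEB DKO (38.4 CPM) and the TKO (39.0 CPM), by 0.39, 0.80 and 0.83 on the log2 scale.

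**Figure D3:**
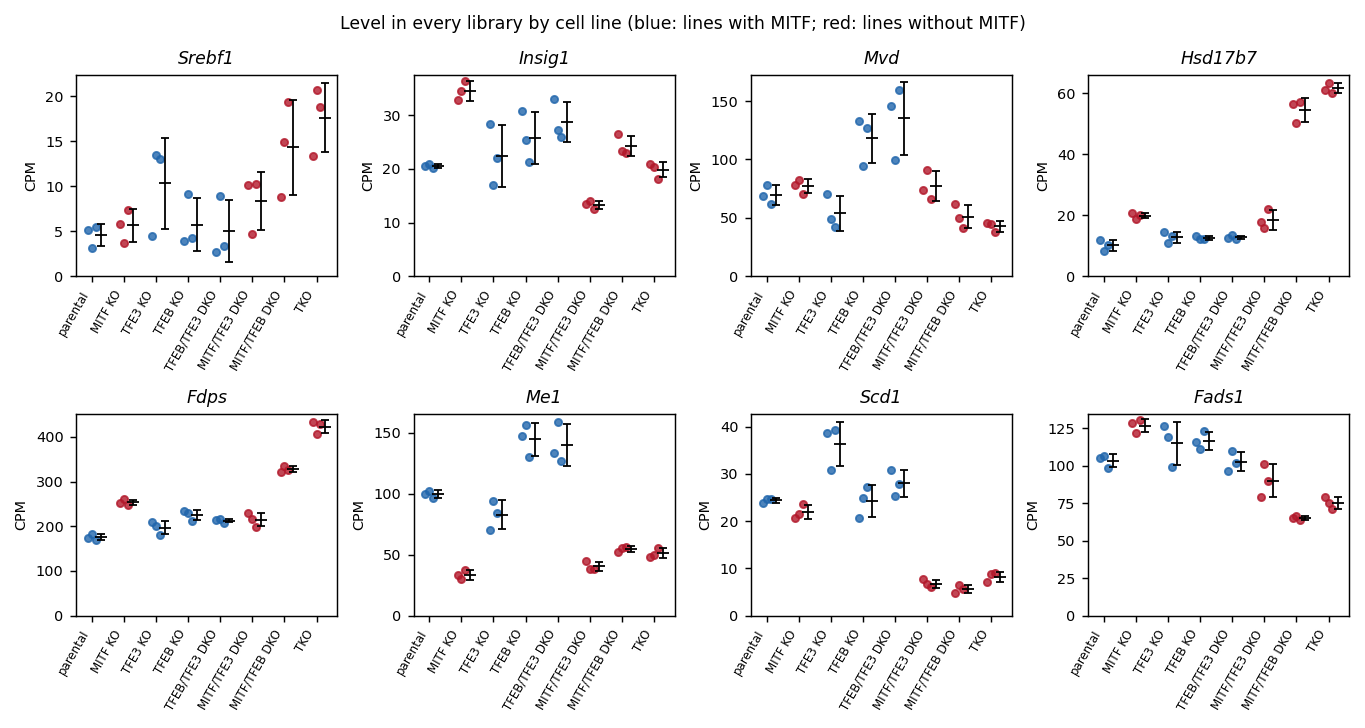
Each panel gives the CPM (y axis, from 0) of 1 gene in the 3 libraries of each of the 8 lines (x axis), blue for lines with MITF and red for lines without, with the mean and SD in black. Hsd17b7 reaches 50.1 to 63.4 CPM in MITF/TFEB DKO and TKO cells only, Me1 is at 56.5 CPM or less in every red library, and Scd1 is at 8.99 CPM or less in the 3 lines that lack MITF and another factor.

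Among the genes that supply acetyl-CoA and NADPH, Me1, the cytosolic malic enzyme and a source of NADPH for both pathways, separated the lines with and without MITF. It had 100, 102 and 96.6 CPM in parental cells and fell to 33.2, 29.7 and 37.2 CPM in MITF KO cells, 44.5, 38.2 and 38.4 CPM in MITF/TFE3 DKO cells, 52.0, 55.8 and 56.5 CPM in MITF/TFEB DKO cells and 48.3, 49.6 and 55.8 CPM in TKO cells, by 1.56, 1.29, 0.85 and 0.95 on the log2 scale (adjusted p = 8.1e-11, 3.7e-09, 7.1e-07 and 1.3e-07). It rose to 147, 157 and 130 CPM in TFEB KO cells and 134, 159 and 127 CPM in TFEB/TFE3 DKO cells (0.53 and 0.48, adjusted p = 0.0044 and 0.0072), while the TFE3 KO had 70.1, 94.3 and 83.9 CPM and was not called. All 12 libraries without MITF lay below all 12 with it. Acly, the ATP citrate lyase, rose from 133 CPM in the parental cells to 181 CPM in MITF/TFEB DKO cells and 191 CPM in TKO cells. Acss2, the acetyl-CoA synthetase that uses acetate, was called in MITF/TFE3 DKO cells, at 7.47 CPM against 5.16 CPM (0.46 ± 0.18, adjusted p = 0.043).

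The 2 enzymes of fatty acid synthesis itself, Fasn and Acaca, were called by limma in no KO line. Fasn had 374, 334 and 334 CPM in parental cells, 398, 410 and 432 CPM in MITF KO cells, 504, 335 and 356 CPM in TFE3 KO cells, 422, 362 and 496 CPM in TFEB KO cells and 409, 315 and 486 CPM in TFEB/TFE3 DKO cells. It had 223, 493 and 371 CPM in MITF/TFE3 DKO cells, 455, 411 and 347 CPM in MITF/TFEB DKO cells and 356, 361 and 351 CPM in TKO cells, so that libraries of 1 line differed by more than the lines did. Its log2 differences ran from -0.01 to 0.29 with an SE of 0.20; fitted on the libraries compared alone, the MITF KO difference of 0.25 passed (adjusted p = 0.0107). Acaca, the acetyl-CoA carboxylase, averaged 31.0 to 50.5 CPM over the 8 lines against 41.7 CPM in the parental cells; edgeR called it lower in MITF/TFEB DKO cells (adjusted p = 0.049, and 0.055 by limma).

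Scd1, which encodes a stearoyl-CoA desaturase that makes oleate, had the largest fall of the 35 genes. It had 23.8, 24.7 and 24.7 CPM in parental cells and fell to 7.68, 6.69 and 5.99 CPM in MITF/TFE3 DKO cells, 4.71, 6.42 and 5.57 CPM in MITF/TFEB DKO cells and 7.07, 8.75 and 8.99 CPM in TKO cells, by 1.71, 1.96 and 1.46 on the log2 scale with an SE of 0.13 (adjusted p = 8.7e-10, 2.1e-11 and 2.8e-09). In the MITF KO it stayed at 20.6, 21.6 and 23.6 CPM (-0.15 ± 0.13, adjusted p = 0.40). The TFEB KO had 20.7, 24.9 and 27.3 CPM and the TFEB/TFE3 DKO 30.8, 25.3 and 27.8 CPM, neither called, and the TFE3 KO had 38.6, 30.9 and 39.3 CPM, which was higher (0.54 ± 0.13, adjusted p = 0.0088; 0.0515 on the libraries compared alone). Scd2, the related desaturase, lies close to Scd1 on chromosome 19, from 44281613 to 44295303 against 44382894 to 44399154 of GRCm39. It averaged 310 to 481 CPM over the lines against 358 CPM in the parental cells and was called in none.

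Fads1, the delta-5 desaturase of polyunsaturated fatty acids, averaged 103 CPM in the parental cells, rose in MITF KO cells (127 CPM, 0.29, adjusted p = 0.015) and fell in MITF/TFEB DKO cells (65.2 CPM, -0.66, adjusted p = 2e-06) and the TKO (75.1 CPM, -0.46, adjusted p = 0.00018). Its neighbour Fads2, the delta-6 desaturase, averaged 106 CPM and rose in TKO cells, to 156 CPM (0.58 ± 0.21, adjusted p = 0.026). Of the elongases, Elovl6 rose from 51.1 CPM to 60.6 CPM in MITF/TFE3 DKO cells, 59.8 CPM in MITF/TFEB DKO cells and 75.4 CPM in TKO cells, Elovl1 rose from 77.6 to 110 CPM in MITF/TFEB DKO cells, and Elovl5 fell from 108 to 90.1 CPM in MITF KO cells.

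In several lines whole stretches of neighbouring genes stood higher or lower than the rest, some of them around genes described here. The median log2 difference of the 100 nearest expressed genes, relative to all genes, was at least 0.3 in size at 1 of the 8 genes called higher and 3 of the 5 called lower in MITF/TFE3 DKO cells, at 3 of 17 and 5 of 7 in MITF/TFEB DKO cells, and at 3 of 19 and 4 of 7 in TKO cells, each in the direction of the gene. Over all genes called, 2.75% of those higher and 23.3% of those lower in MITF/TFE3 DKO cells lay in such stretches, 19.6% and 23.4% in MITF/TFEB DKO cells, and 21.3% and 20.2% in TKO cells. Around Hsd17b7 on chromosome 1 the median was 0.58 in MITF/TFEB DKO cells and 0.61 in TKO cells, beside the gene's own 2.32 and 2.49. Around Scd1 it was -0.84 and -0.81, and -0.33 in MITF/TFE3 DKO cells; around Fads1 it was -0.58 in both MITF/TFEB DKO and TKO cells, about the size of the gene's own differences of -0.66 and -0.46. Around Mvd it was -0.52 and -0.47 and around Mvk -0.41 and -0.43 in MITF/TFEB DKO and TKO cells. The fall of Mvd in MITF/TFEB DKO cells was no larger than that of its stretch. Me1 also lay in a lowered stretch in MITF/TFEB DKO cells, but not in the other lines without MITF. Around Nsdhl and Ebp on the X chromosome it was 0.45 and 0.42 in MITF/TFEB DKO cells and 0.54 for both in TKO cells. Insig2 and, in TKO cells, Fads2 went against their stretches, with 0.48 and -0.58 in TKO cells. In the MITF/TFE3 DKO the stretches around Insig1, Cyp51 and Msmo1 stood at -0.30, -0.31 and 0.31. Around Fdps, Fdft1, Pmvk, Dhcr7, Sqle, Hmgcs1, Lss and Sc5d the stretches stood between -0.23 and 0.26 in MITF/TFEB DKO and TKO cells. The part of these stretches in the genes' differences was not tested.

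Taking MITF as the dividing line, the 4 lines without MITF had 17 genes higher and 11 lower than the 4 lines with it, where 35.1% and 33.7% of all genes were called. Hsd17b7 (1.41 ± 0.06, adjusted p = 3.2e-15) and Pmvk (0.81 ± 0.06, adjusted p = 8e-12) led the genes that were higher, and Scd1 (-1.50 ± 0.07) and Me1 (-1.34 ± 0.05) those that were lower. The SE and adjusted p-values of this comparison come from the spread of libraries within lines and do not measure the spread between lines. The lines without MITF share the MITF KO cells as their origin, so they are not separate losses of MITF. For Hsd17b7 this mean holds unlike lines, since the rise was far larger in MITF/TFEB DKO and TKO cells than in MITF KO and MITF/TFE3 DKO cells. For Scd1 it also holds unlike lines, since the MITF KO was close to the parental cells. The median of the 17 cholesterol enzymes was 0.36 and that of the 12 fatty acid enzymes -0.09, with 11 higher and 4 lower in the first group and 4 higher and 6 lower in the second.

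The effect of losing a further factor on top of MITF was read against the MITF KO. With TFEB lost as well, 12 genes were higher and 7 lower (all genes 25.1% and 23.9%); Hsd17b7 rose by a further 1.41 ± 0.13 (adjusted p = 3.3e-09), Srebf1 by 1.18 ± 0.40 (adjusted p = 0.018), Me1 by 0.70 ± 0.11 (adjusted p = 1.4e-05) and Stard4 by 0.65 ± 0.10 (adjusted p = 1.3e-05). Scd1 fell by 1.81, Fads1 by 0.95, Mvd by 0.60, Mvk by 0.56, Acat2 by 0.55 and Insig1 by 0.49 on the log2 scale. All 5 regulators were called, with Srebf1, Srebf2 and Scap higher and Insig1 and Insig2 lower. Srebf2 averaged 46.6 CPM in MITF KO cells and 64.9 CPM in MITF/TFEB DKO cells, and Scap 63.4 and 89.1 CPM. With TFE3 lost as well, 2 genes were higher and 10 lower (all genes 18.1% and 19.7%). The 10 included 6 cholesterol enzymes, Fdps, Sqle, Cyp51, Nsdhl, Ebp and Dhcr7, whose falls ran from 0.24 to 0.69, and also Insig1 (-1.31 ± 0.14, adjusted p = 2.9e-07), Scd1 (-1.56 ± 0.13), Fads1 (-0.50) and Elovl1 (-0.36, adjusted p = 0.049, and 0.055 by edgeR). Scap (0.38) and Elovl5 (0.38) were the 2 that were higher. The median of the 17 cholesterol enzymes was 0.18 after TFEB loss and -0.21 after TFE3 loss in cells without MITF. The count of 10 fell to 6 without MITF/TFE3 DKO library 1, and that of 2 to 0 without MITF KO library 2.

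With TFE3 lost on top of MITF and TFEB, the TKO had 6 genes higher and 0 lower than the MITF/TFEB DKO (all genes 5.41% and 6.99%); for the lower direction an unadjusted p under 0.05 and edgeR also gave 0. The 6 were Pmvk (0.44, adjusted p = 0.008), Fdps (0.37, adjusted p = 0.00066), Nsdhl (0.37, adjusted p = 0.0498, and 0.0506 by edgeR), Scd1 (0.50, adjusted p = 0.013), Elovl6 (0.33, adjusted p = 0.018) and Elovl5 (0.31, adjusted p = 0.042). The count was 2 without TKO library 2 and 3 without TKO library 1 or 3 or MITF/TFEB DKO library 1.

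The test of whether TFEB loss did different things with and without MITF compared the MITF/TFEB DKO minus the MITF KO with the TFEB KO minus the parental cells. The difference was called and at least 2-fold for 4 genes, a share close to that of all genes (12.1%). Hsd17b7 stood higher by 1.41 without MITF and by 0.28 with it, of which the first was called, Mvd rose with MITF and fell without it (0.74 against -0.60), and Scd1 and Fads1 fell without MITF (-1.81 and -0.95) where they had changed by -0.02 and 0.17 with it. Below 2-fold, Insig1, Acat2, Mvk, Cyp51 and Insig2 had lower values of the difference and Stard4 and Scap higher ones, with adjusted p-values from 0.0023 to 0.026.

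**Figure D4:**
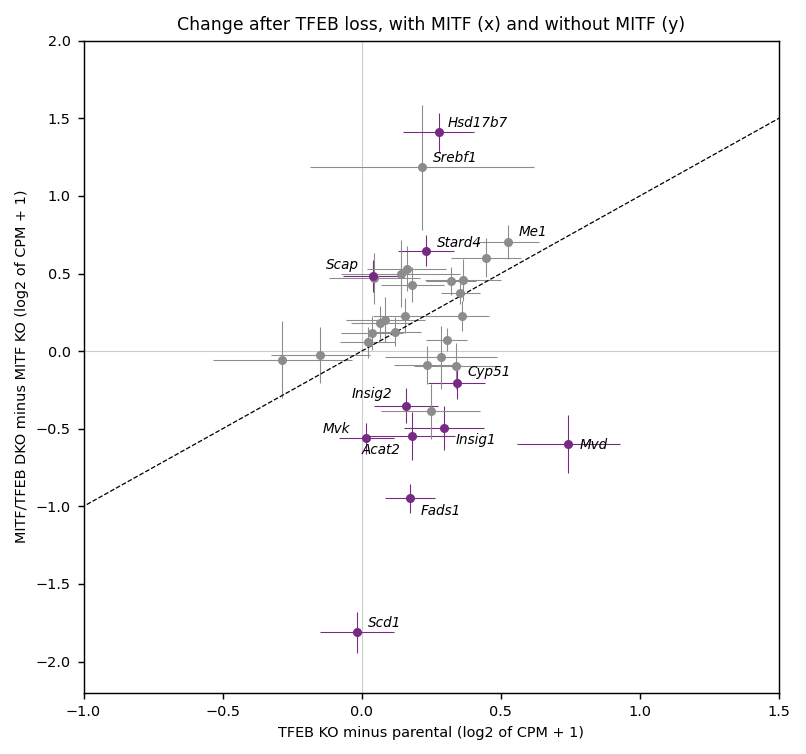
The x axis gives the TFEB KO minus the parental cells and the y axis the MITF/TFEB DKO minus the MITF KO, both as log2 of (CPM + 1) with their SE; each point is 1 of the 35 genes, purple where the 2 differences differed at an adjusted p under 0.05, and the dashed line marks equal values. Hsd17b7 lies above the line at 1.41, and Scd1, Fads1 and Mvd lie below it at -1.81, -0.95 and -0.60.

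Over the 8 line means, the cholesterol enzymes varied together more than the fatty acid enzymes did. The median pairwise Pearson r was 0.645 among the 16 cholesterol enzymes with a mean of at least 5 CPM, 0.15 among the 12 fatty acid enzymes and near 0 among 9539 genes; the 8 points share their normalisation and stand for lines that are related by origin, so these are descriptions. Fdft1 and Fdps followed the mean of the other cholesterol enzymes most closely, with r of 0.955 and 0.946. Mvk, Acat2 and Mvd ran against it, with r of -0.674, -0.575 and -0.433. Within lines, over deviations of the 24 libraries from their line means, the median r was 0.20 among the cholesterol enzymes and 0.00912 among the fatty acid enzymes.

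The other genes of the pathway were read from 5 lists that hold no members. Of 10 genes of SREBP processing and sterol sensing, 4 were higher and 2 lower in MITF/TFE3 DKO cells (all genes 20.2% and 21.7%) and 4 and 3 in TKO cells (28.3% and 27.9%); Ube2g2, a ubiquitin-conjugating enzyme of sterol-driven degradation, rose in these lines (1.09 and 0.75), and Pgrmc1, a partner of INSIG and SCAP, rose in MITF/TFEB DKO and TKO cells (0.83 and 1.05). Of 8 genes of the isoprenoid branches, 1 was higher and 2 lower in MITF/TFEB DKO cells (all genes 28.8% and 27.3%). In TKO cells 2 were higher and 2 lower (all genes 28.3% and 27.9%). In each of the other lines at most 1 was called in either direction (all genes 2.25% to 21.7%). Fnta, a subunit of farnesyltransferase, rose in the 4 lines without MITF, by 0.35 to 0.77, and Nus1, of dolichol synthesis, rose in TKO cells (0.64). Of 10 genes of cholesterol storage, egress and efflux in the table, Lipa, the lysosomal acid lipase, rose from 62.2 CPM to 145 CPM in MITF KO cells (1.21 ± 0.10, adjusted p = 7.5e-10) and 135 CPM in MITF/TFE3 DKO cells, and less in MITF/TFEB DKO cells (0.53) and the TKO (0.53). Osbp, an oxysterol-binding protein, fell by 0.76, 0.86 and 1.05 in MITF/TFE3 DKO cells, the MITF/TFEB DKO and the TKO, and this list had 2 genes higher and 4 lower in each of the last 2 lines (all genes 28.8% and 27.3%, and 28.3% and 27.9%).

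Of 14 genes of glycerolipid synthesis, 6 were higher and 6 lower in both MITF/TFEB DKO cells (all genes 28.8% and 27.3%) and TKO cells (28.3% and 27.9%). Lpin1, the phosphatidate phosphatase lipin 1, rose from 9.41 CPM to 26.6 CPM in MITF/TFE3 DKO cells, 26.1 CPM in MITF/TFEB DKO cells and 23.5 CPM in TKO cells, and less in MITF KO cells (14.2 CPM) and the TFEB/TFE3 DKO (14.3 CPM). Pcyt2, of phosphatidylethanolamine synthesis, fell from 19.99 CPM to 6.98 CPM in MITF/TFEB DKO cells (-1.40 ± 0.14, adjusted p = 9.6e-09) and 7.07 CPM in TKO cells (-1.37 ± 0.14, adjusted p = 1.2e-08). Of 12 other genes of fatty acid elongation and supply in the table, 6 were higher and 3 lower in MITF KO cells (all genes 20.1% and 17.8%). Elovl4, an elongase of very long chains, had 102 to 117 reads per library in MITF KO cells and 73 to 97 in MITF/TFE3 DKO cells but 0 to 9 in every library of the other 6 lines, and Mid1ip1, an activator of acetyl-CoA carboxylase, rose from 28.01 to 57.6 CPM in TKO cells (1.02 ± 0.17, adjusted p = 2.3e-05).

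The strand used in counting is not given in the sources used here, and genes on the opposite strand reach the 3′ ends of 15 of the 35 genes, among them Srebf1, Hmgcs1, Fdft1, Sqle, Cyp51 and Me1. Without strand, reads of these genes and of their partners could not be told apart. The 3′ ends of Hsd17b7, Mvd, Pmvk, Dhcr7, Scd1 and Fasn had no such partner and no shared 50-base stretches.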

How the data were processed

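RNA of 24 libraries (8 lines, 3 each) was sequenced from the 3′ end. The authors trimmed the reads (Trim Galore 0.6.5, cutadapt 2.10), checked them with FastQC 0.11.9, mapped them with STAR 2.7.8a to mm39 and normalised gene counts with edgeR, per the labels' processing notes and the study's methods; the counter, its strand setting, the annotation and the gene filter are not given in the sources used here. The deposited values are a normalised signal, CPM divided by TMM factors (0.925 to 1.07), of 12010 genes. The tests had been planned for CPM and were kept for this scaling. Whole reads were recovered from 99.9976% of values (within 0.1 read; 99.9917% in the lowest library). Libraries held a median of 22445535 reads.

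All 24 libraries were fitted with limma 3.58.1 (R 4.3.3) on log2(CPM + 1) with a variance trend, 16 residual degrees of freedom and Benjamini-Hochberg adjustment over all genes; this scale understates changes of low genes. Alternatives were edgeR 4.0.16 quasi-likelihood on recovered reads (6674 genes called in the TKO against parental, 6752 by limma), pseudocounts of 0.25 and 5, a mean CPM of at least 5, median-of-ratios factors, quantile normalization, only the libraries compared, a replicate block and each library left out. Tested on simulated data for the MITF KO comparison (12010 genes, 200 of them changed), limma recovered 98.9% of changes of 1 and 100% of changes of 2 on the log2 scale. The changed genes had a mean CPM of at least 5. Changes smaller than 1 were not simulated, so recovery of the smaller changes reported here is not known. Each simulated gene had the spread of edgeR's trend for its expression level. Genes with more spread between libraries than this trend were not simulated, so their recovery is not known either. In the real comparisons with the parental cells, limma called 581 to 6752 genes. Neighbouring genes were the 100 nearest with a mean CPM of at least 5 along GRCm39 (9340 genes).

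The members, lists, tests and alternatives were chosen with earlier results of these data known. Values in every library are given for the 3 members with the largest called change in each KO line and for Srebf1, Srebf2, Hmgcs1, Sqle, Fasn and Scd1; the 2 genes with the largest called change are named from each pathway list. Promoter windows are from RefSeq (GRCm38.p6) and were placed in GRCm39 by exact match. Python 3.11.15, numpy 2.4.6, pandas 2.3.3 and matplotlib 3.10.9 were used.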

Additional observations from a re-analysis of the deposited data

Results flagged for a closer look

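In 4 of the 35 genes the change that came with TFEB loss differed between cells without and with MITF. The criteria were an adjusted p under 0.05 by limma's interaction contrast in the same fit and at least a 2-fold difference. This share was close to that of all genes, of which 12.1% met the same criteria. The difference was 1.13 on the log2 scale for Hsd17b7 (SE 0.18, adjusted p = 2.9e-05), -1.79 for Scd1 (SE 0.19, adjusted p = 8.5e-08), -1.34 for Mvd (SE 0.26, adjusted p = 0.00036) and -1.12 for Fads1 (SE 0.13, adjusted p = 3.5e-07). The count was 4 whichever single library was left out. The median of the 100 neighbouring genes for the same contrast was 0.34 around Hsd17b7 and lay between -0.86 and -0.45 around Scd1, Mvd and Fads1. The part of the neighbouring genes in the differences was not tested. Lines had 3 libraries each, which is too few to flag single outlying libraries.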

How the results depend on the processing

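Of 238 counts recomputed under settings other than leaving out a library, 232 stayed within 1.5 times the reported count. In the TFE3 KO against parental, members higher were 5 with median-of-ratios size factors and 0 with only the libraries compared, and members lower were 0 with only the libraries compared. In the TFEB KO, members higher were 1 with only the libraries compared. At the study's threshold the TFE3 KO had 1 with edgeR on the reads and 1 with a pseudocount of 0.25. The fits on only the libraries compared have fewer libraries behind the spread; for the other settings the cause was not tested. Of the gene values checked, none that was called in either fit reversed its direction.

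With single libraries left out, 682 of 720 counts stayed within 1.5 times. Members higher ran from 8 to 13 in the MITF KO, 1 to 6 in the TFE3 KO, 2 to 8 in the TFEB KO, 7 to 12 in the TFEB/TFE3 DKO, 5 to 8 in the MITF/TFE3 DKO, 16 to 17 in the MITF/TFEB DKO and 18 to 21 in the TKO, and members lower from 1 to 3, 0 to 4, 0 to 0, 0 to 0, 4 to 8, 6 to 8 and 7 to 8. The MITF/TFE3 DKO against the MITF KO ran from 0 to 3 higher and 6 to 13 lower, and the TKO against the MITF/TFEB DKO from 2 to 6 higher. At the study's threshold the counts ran from 1 to 2 in the MITF KO, 0 to 1 in the TFE3 KO, 0 to 1 in the TFEB/TFE3 DKO, 2 to 3 in the MITF/TFE3 DKO, 3 to 4 in the MITF/TFEB DKO and 6 to 9 in the TKO.

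Libraries with the same replicate number in different lines did not deviate together (mean r 0.0222, from -0.66 to 0.77, against -0.0126 between other numbers), so the numbers were not taken to pair them; with the replicate number as a block, all counts stayed within 1.5 times and Sqle in the TFE3 KO was no longer called (0.30, adjusted p = 0.0522). Of 456 values of the genes given per library, 13 lost and 3 gained a call under the other settings, and of 1368 with a library left out, 60 lost and 8 gained one. Depth limits Tm7sf2 (7 to 51 reads per library) and Srebf1 (67 to 485).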
